A study of Rattus norvegicus with 3 samples.

Results

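Genes of mast cells and basophils were measured in rat condylar cartilage and subchondral bone by single-cell RNA sequencing. The list held 8 genes, Cpa3, Mcpt8, Mcpt10, Mcpt8l2, Ms4a2, Fcer1a, Gata2 and Hdc, out of 20896 gene names in the tables of 3 libraries. The members were chosen by a rule that uses the deposited mean counts, and with the levels of these tables in the 3 libraries known, so their levels and their placement among clusters are given as a description. An entry of the same name stood in all 3 tables for 7 of the 8 genes. Mcpt8 was not matched, neither under its symbol nor under its synonyms, and it has no value in what follows. RefSeq lists RMCP-10 as a synonym of Mcpt8 and rMCP-10 as one of Mcpt10, so which of the 2 genes the entry named Mcpt10 measures rests on that name.

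Mast cells and basophils are granulocytes that bind immunoglobulin E through the high-affinity receptor FcεRI and release stored granules when the bound antibody is cross-linked. The granules hold histamine, proteoglycan and proteases, among them carboxypeptidase A3, chymases, tryptases and the proteases of the rat Mcpt8 family, and both cell types depend on the transcription factor GATA2. Mast cells lie in connective tissue such as the synovium and the marrow spaces of bone, whereas basophils mature in the bone marrow and circulate in blood.

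The animals were SD rats whose temporomandibular joints received an adeno-associated virus (AAV). The sham group received Vector AAV and no unilateral anterior crossbite (UAC), a dental appliance that overloads the joint. The UAC group received UAC and Vector AAV, and the UAC + miR-330 group received UAC and an AAV that carries miR-330. All rats were wild type, all had AAV in the joint, and their age was not given in the sources used here. The series used 24 rats, and 16 condyles of a group were mixed into 1 library, so each condition had 1 library and single rats cannot be told apart. The comparison of UAC with sham addresses the overloaded joint, and the comparison of UAC + miR-330 with UAC addresses the added microRNA; both use the same UAC library.

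The tables gave a mean count for every gene in every cluster, and the sham table had 15 clusters, that of UAC 18 and that of UAC + miR-330 19, together 52. From these means the unique molecular identifiers (UMIs, 1 for each captured transcript) were recovered. Sham was sequenced to 77668015 UMIs, UAC to 92629658 and UAC + miR-330 to 97255383, and no cluster had fewer than 1352666. Levels are UMIs per 1000000 UMIs of the library or of the cluster (CPM) with exact Poisson 95% intervals, and shares of a gene's UMIs have exact binomial (Clopper-Pearson) 95% intervals. The intervals cover counting error only. Levels are called apart where their intervals do not overlap, in CPM unless the deposited means are named. With 1 library per condition there was no replicate to check any difference against, and no test was run. A log2 ratio was taken after 0.5 UMI had been added to each side, and a gene was past the fold at a log2 ratio of at least 1 in size, provided that both libraries together held 20 UMIs or more.

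The labels name chondrocytes and osteoclasts as the cells. Of 8 chondrocyte and stromal markers, 8 were detected in each library, and their summed level was 12737 CPM in sham, 5797 CPM in UAC and 5717 CPM in UAC + miR-330, with Col1a1 the most abundant at 6848, 3096 and 3064 CPM. Marker lists of blood cells were detected as well. The summed level of 10 neutrophil markers was 41319 CPM in sham, 63907.5 CPM in UAC and 44940.0 CPM in UAC + miR-330, with S100a9 the most abundant of them in all 3 libraries. The 13 listed mast cell markers, of which 11 had an entry, summed to 119 CPM in sham, 165 CPM in UAC and 136 CPM in UAC + miR-330, with Mcpt2 the most abundant and none of the 11 at 0. Of 11 basophil markers, 9 had an entry in sham and UAC + miR-330 and 10 in UAC, and the most abundant, Lmo4, is a gene of many cell types.

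Between UAC and sham, 3 of the 7 genes were at least 2-fold higher in UAC, beside 516 of 15643 genes (3.3%), and 0 of the 7 were at least 2-fold lower, beside 387 genes (2.47%). The median log2 ratio of the 7 genes was 0.88, and that of all genes was −0.02. The levels were apart and higher in UAC for 5 of the 7, apart and lower for Cpa3, and not apart for Fcer1a. On the deposited means without CPM, 6 of the 7 were apart and higher in UAC, Fcer1a among them, and Cpa3 was not apart. The share of all genes apart by this rule is not given here, so these counts have no background to be read against. Since the list was chosen with values of these tables known, its count past the fold beside the share of all genes is a description. Fewer cells of a type and less RNA per cell cannot be told apart here, because the number of cells in a cluster was not analysed.

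Between UAC + miR-330 and UAC, 0 of the 7 genes were at least 2-fold higher, beside 548 of 15917 genes (3.44%), and 0 were at least 2-fold lower, beside 233 genes (1.46%). The median log2 ratio was 0.06 for the 7 genes and 0.13 for all genes. The deposited means carry 1 scale per library, and taking their ratio without CPM moves every gene up alike, by 0.20 between UAC and sham and by 0.24 between UAC + miR-330 and UAC. It is thus another choice of total and no separate test. The levels were apart and higher in UAC + miR-330 for Cpa3 and Gata2, apart and lower for Fcer1a and Mcpt10, and not apart for Mcpt8l2, Ms4a2 and Hdc. With the shift of the deposited means 5 of the 7 genes were apart and higher in UAC + miR-330, 0 were apart and lower, and Fcer1a and Hdc were not apart. Mcpt10, whose sign was reversed by that shift alone, was then at 0.06, under the 0.37 of the median gene on that scale. For this comparison, too, the share of all genes apart is not given, so the counts of genes apart are a description.

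**Figure D1:**
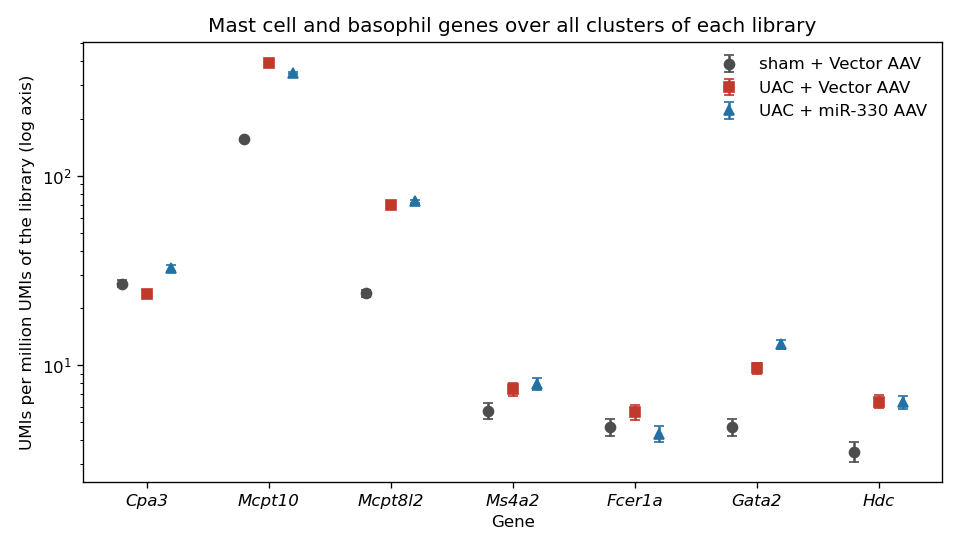
Level of each of the 7 genes over all clusters of a library, in UMIs per 1000000 on a log axis, with bars for the exact Poisson 95% interval; circles are sham, squares UAC and triangles UAC + miR-330. Mcpt10 lies at 155, 391.7 and 347 CPM and Mcpt8l2 at 23.9, 70.2 and 73.0 CPM, with sham the lowest for both.

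Cpa3 (ENSRNOG00000011181) encodes carboxypeptidase A3, a zinc protease of mast cell and basophil granules that trims peptides from their carboxyl end. Its level was 26.8 CPM (25.7 to 28.0) in sham, 23.7 CPM (22.7 to 24.7) in UAC and 32.4 CPM (31.3 to 33.6) in UAC + miR-330. The 3 intervals did not overlap, and UAC + miR-330 was the highest and UAC the lowest, although on the deposited means UAC and sham overlapped at a log2 ratio of 0.02. The log2 ratio of CPM was −0.18 (−0.27 to −0.09) for UAC to sham, with the sign reversed on the deposited means, and 0.45 (0.37 to 0.53) for UAC + miR-330 to UAC. Neither ratio was past the fold.

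Mcpt10 (ENSRNOG00000049991) encodes a granule serine protease of the rat Mcpt8 family. Its level was 155 CPM (153 to 158) in sham, 391.7 CPM (388 to 396) in UAC and 347 CPM (343 to 350.4) in UAC + miR-330. Sham was the lowest and its interval was far from the other 2, which did not overlap each other either. The log2 ratio was 1.33 (1.30 to 1.36) for UAC to sham and −0.18 (−0.20 to −0.15) for UAC + miR-330 to UAC, where it is 0.06 on the deposited means.

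Mcpt8l2 (ENSRNOG00000049096), another gene of the Mcpt8 family, was at 23.9 CPM (22.8 to 25.0) in sham, 70.2 CPM (68.5 to 71.9) in UAC and 73.0 CPM (71.3 to 74.7) in UAC + miR-330. Sham was again the lowest, and the intervals of the 2 UAC libraries overlapped in CPM and not on the deposited means. The log2 ratio was 1.56 (1.48 to 1.63) for UAC to sham and 0.06 (0.01 to 0.10) for UAC + miR-330 to UAC, where it is 0.29 on the deposited means. In these 2 genes and in Gata2 the ratio of UAC to sham was past the fold.

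Mcpt8, Mcpt8l2 and Mcpt10 lie in a run of 29 neighbouring gene records on rat chromosome 15, many of them named as proteases, that begins with Cma1 and ends with Gzmb. Numbered along that run in the RefSeq annotation of GRCr8, Mcpt8l2 is gene 10, Mcpt8 gene 12, Mcpt9 gene 14, Mcpt1l1 gene 16, Mcpt10 gene 17 and Ctsg gene 18. The transcripts of the family were not compared, and how reads of like copies were divided was not analysed here, so the levels of Mcpt8l2 and Mcpt10 carry that uncertainty. To show how alike Mcpt8 and Mcpt8l2 are upstream, the 158 bases directly before each gene record in RefSeq, the stretch over which the pair aligned, are printed (GRCr8, chr15:33769417-33769574 and chr15:33718231-33718388, both on the + strand), with the bases that differ in capitals. The stretches have 153 identical bases and 0 gaps.
Mcpt8: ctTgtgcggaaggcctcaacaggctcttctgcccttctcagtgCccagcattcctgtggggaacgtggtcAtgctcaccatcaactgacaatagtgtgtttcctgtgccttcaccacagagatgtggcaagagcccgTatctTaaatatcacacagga
Mcpt8l2: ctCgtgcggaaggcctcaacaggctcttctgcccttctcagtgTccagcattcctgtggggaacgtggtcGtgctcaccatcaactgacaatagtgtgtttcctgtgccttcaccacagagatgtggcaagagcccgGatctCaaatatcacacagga
Over the 250 bases before the start that the RefSeq promoter table uses, which lies inside the gene record, Mcpt8 and Mcpt8l2 had 224 identical bases (89.6%), Mcpt8 and Mcpt9 had 233 (93.2%), and Mcpt8l2 and Mcpt9 had 232 (92.8%). These windows begin at different places along the sequence that the genes share, and the divisor was always 250. Bases at the ends without a partner lower the shares, so the order of these pairs is not read as likeness. Pairs outside the family, such as Gata2 with Hdc, had 55.6% to 59.2%.

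Ms4a2 (ENSRNOG00000020993) encodes the beta chain of FcεRI, which amplifies the signal of the receptor. Its level was 5.72 CPM (5.20 to 6.27) in sham, 7.44 CPM (6.89 to 8.02) in UAC and 7.95 CPM (7.40 to 8.53) in UAC + miR-330. Sham was the lowest, and the 2 UAC libraries overlapped in CPM and were apart on the deposited means. The log2 ratio was 0.38 (0.21 to 0.56) for UAC to sham and 0.10 (−0.05 to 0.25) for UAC + miR-330 to UAC, where it is 0.33 on the deposited means.

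Fcer1a (ENSRNOG00000009177) encodes the alpha chain, which binds immunoglobulin E. Its level was 4.70 CPM (4.23 to 5.21) in sham, 5.62 CPM (5.15 to 6.13) in UAC and 4.35 CPM (3.94 to 4.78) in UAC + miR-330. The interval of sham overlapped both others, and UAC lay above UAC + miR-330 without overlap in CPM but with overlap on the deposited means. The log2 ratio was 0.26 (0.06 to 0.46) for UAC to sham and −0.37 (−0.56 to −0.18) for UAC + miR-330 to UAC, where it is −0.13 on the deposited means. The UMIs of Ms4a2 per UMI of Fcer1a, a ratio used only to compare libraries, were 1.22 (1.06 to 1.40) in sham, 1.32 (1.18 to 1.48) in UAC and 1.83 (1.62 to 2.06) in UAC + miR-330. The last of these intervals lay above the other 2, which overlapped. Within UAC + miR-330 the ratio was 1.75 (1.48 to 2.07) in cluster 18 and 1.14 (0.905 to 1.43) in cluster 19. Clusters 14 and 11 of that library held 92 and 49 UMIs of Ms4a2 beside 8 and 4 of Fcer1a.

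Gata2 (ENSRNOG00000012347) encodes the transcription factor GATA2, which is also made in blood stem and progenitor cells and in the endothelium. Its level was 4.69 CPM (4.22 to 5.19) in sham, 9.62 CPM (8.998 to 10.3) in UAC and 12.9 CPM (12.2 to 13.6) in UAC + miR-330. The order was sham, UAC and UAC + miR-330 from low to high, with no overlap. The log2 ratio was 1.04 (0.86 to 1.22) for UAC to sham and 0.42 (0.30 to 0.55) for UAC + miR-330 to UAC. The first of these lay just past the fold, and it was 0.95 when the cluster highest in Col2a1 was left out of the total of each library, a setting chosen after the data had been seen.

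Hdc (ENSRNOG00000010262) encodes histidine decarboxylase, the enzyme that makes histamine. Its level was 3.48 CPM (3.07 to 3.92) in sham, 6.402 CPM (5.90 to 6.94) in UAC and 6.34 CPM (5.85 to 6.87) in UAC + miR-330. Sham was the lowest, and the 2 UAC libraries overlapped. The log2 ratio was 0.88 (0.67 to 1.09) for UAC to sham, just under the fold, and −0.01 (−0.18 to 0.15) for UAC + miR-330 to UAC. On the deposited means these were 1.075, past the fold, and 0.22, with overlap.

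Each library had been clustered by itself, so the numbers of clusters do not correspond between libraries. When clusters were ranked by the level of each gene, the best median rank fell to cluster 14 in sham, cluster 13 in UAC and cluster 18 in UAC + miR-330, which held 1.99%, 3.69% and 3.58% of the UMIs of their libraries. Because the levels of the 7 genes picked these clusters, how many of the 7 are highest there follows largely from the choice, and nothing is read from those counts beside the share of all genes. Of the 7 genes, 7 had their highest level in cluster 14 of sham, beside 2.12% of 14366 genes, and 7 in cluster 13 of UAC, beside 2% of 14700 genes. In cluster 18 of UAC + miR-330 it was 5 of the 7, beside 1.81% of 14934 genes; the exceptions were Cpa3, highest in cluster 19, and Gata2, highest in cluster 14. At least 50% of the UMIs lay in 1 cluster for 4 of the 7 genes in sham (17.3% of all genes), 6 in UAC (14.5%) and 6 in UAC + miR-330 (14.5%). The median share of a gene's UMIs in these clusters was 49.1% in sham, 90.2% in UAC and 50.7% in UAC + miR-330. The value for sham depended on the weighing of clusters. It was higher when they were weighed equally, as given under the dependence on processing.

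**Figure D2:**
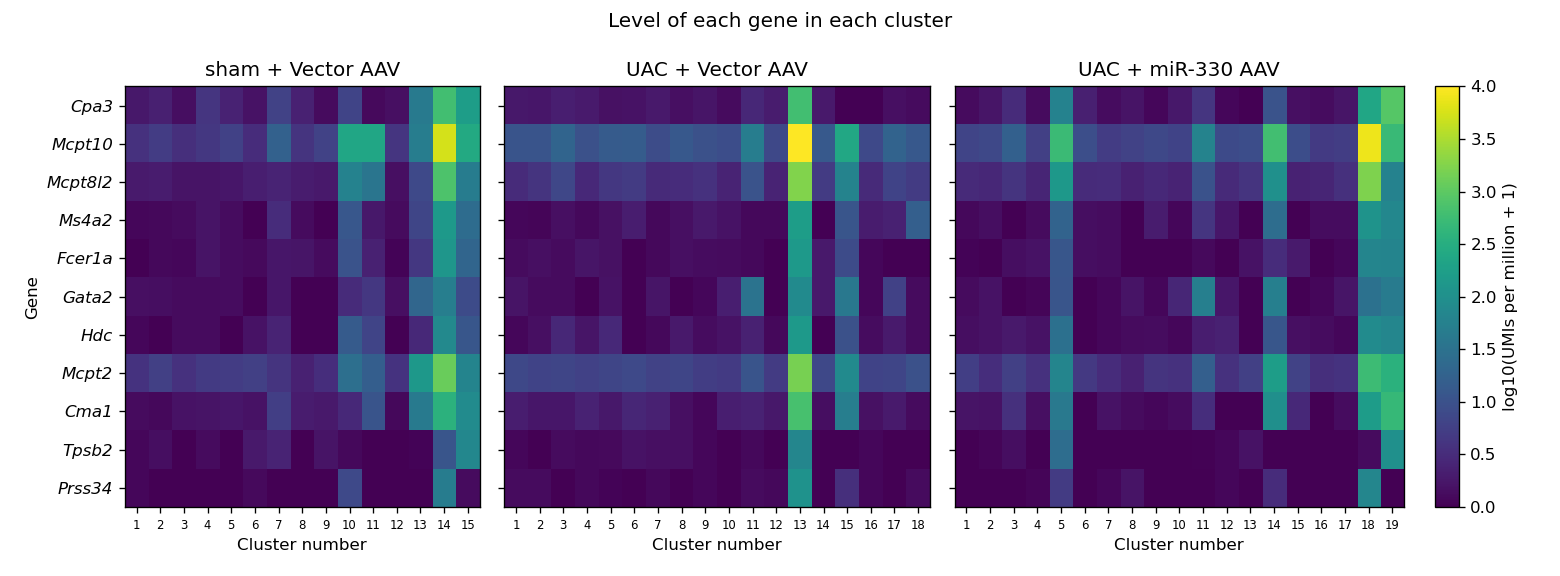
Level of the 7 genes, and of Mcpt2, Cma1, Tpsb2 and Prss34, in every cluster of the 3 libraries, as log10 of UMIs per 1000000 + 1; columns are clusters by number and rows are genes. Columns 14 of sham, 13 of UAC and 18 of UAC + miR-330 are the brightest for Mcpt10, at 5428, 9946 and 7895 CPM, and column 19 of UAC + miR-330 is the brightest for Cpa3, at 895 CPM.

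In UAC the genes lay together. Cluster 13 held 96.7% (95.9% to 97.4%) of the UMIs of Cpa3, 93.8% of Mcpt10, 91.6% of Mcpt8l2, 90.2% of Fcer1a, 82.8% of Hdc and 82.6% of Ms4a2. Gata2 was the exception, with 31.4% in cluster 13 and 49.8% (46.5% to 53.2%) in cluster 11. Erythroid markers summed to 2649 CPM in cluster 11, where 7 of 8 were enriched, that is at least 2-fold above the rest of the library with 10 UMIs or more. They summed to 7453 CPM in cluster 13, with 3 of 8 enriched. The share of all genes enriched by this rule in a cluster is not given, so all such counts are a description. The levels in cluster 13 were 620.5 CPM for Cpa3, 9946 for Mcpt10, 1741 for Mcpt8l2, 166 for Ms4a2, 137 for Fcer1a, 144 for Hdc and 81.9 for Gata2. Outside it Cpa3 was at 0.807 CPM (0.631 to 1.02) and Fcer1a at 0.572 CPM (0.426 to 0.752), while Mcpt10 was at 25.4 CPM (24.3 to 26.4) and had UMIs in all 18 clusters. Cluster 15 of UAC held 809 UMIs of Mcpt10 and 0 of Cpa3, which allows up to 1.12 CPM of Cpa3 there. A further 50 UMIs of Ms4a2, 7.26% of its UMIs in the library, lay in cluster 18.

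In sham the genes were spread over more clusters. Cluster 14 held 46.4% (44.2% to 48.5%) of the UMIs of Cpa3, cluster 15 held 26.9% (25.0% to 28.9%) and cluster 13 held 22.9% (21.1% to 24.7%). Mcpt10 and Mcpt8l2 had 69.7% and 63.2% of their UMIs in cluster 14, and Ms4a2, Fcer1a and Hdc had 49.1%, 53.4% and 43.7% there. Cluster 15 held 19.1% of the UMIs of Ms4a2, 18.1% of Fcer1a and 13.7% of Hdc, and cluster 10 held a further 12.2%, 12.6% and 23.0%. Most of Gata2 lay elsewhere, with 61.0% (55.8% to 66.0%) in cluster 13 and 21.4% in cluster 14. Cluster 13 had 5 of 8 erythroid markers enriched, at a summed 1135 CPM. Cluster 14 had 7 of 8 enriched, at a summed 53316 CPM, so they were not particular to cluster 13. The levels in cluster 14 were 624 CPM for Cpa3, 5428 for Mcpt10, 756 for Mcpt8l2, 141 for Ms4a2, 126 for Fcer1a, 76.2 for Hdc and 50.3 for Gata2. Cpa3 thus had overlapping levels in cluster 14 of sham (585 to 664 CPM) and cluster 13 of UAC (594 to 647 CPM), whereas the intervals of Mcpt10 in them, 5312 to 5545 CPM in sham and at least 9841 CPM in UAC, did not overlap.

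In UAC + miR-330 the genes other than Gata2 lay mainly in 2 clusters, in unlike shares. Cluster 19 held 65.9% (64.2% to 67.5%) of the UMIs of Cpa3 and cluster 18 held 25.2% (23.7% to 26.7%). For Mcpt10 it was 3.53% (3.33% to 3.73%) in cluster 19 and 81.6% (81.1% to 82.0%) in cluster 18, and for Mcpt8l2 it was 1.90% and 83.7%. The receptor chains and Hdc lay in both clusters, with 50.7% in cluster 18 and 21.2% in cluster 19 for Ms4a2, 53.0% and 34.04% for Fcer1a, and 47.2% and 25.4% for Hdc. Cluster 5 held a further 13.5% of Hdc, 7.09% of Fcer1a and 6.60% of Ms4a2. Another 11.9% of Ms4a2 lay in cluster 14 and 6.34% in cluster 11. Per 1000000 UMIs, Fcer1a was at 64.3 CPM (56.2 to 73.3) in cluster 18 and 62.1 CPM (52.3 to 73.1) in cluster 19, and Hdc was at 83.5 CPM (74.2 to 93.7) and 67.7 CPM (57.5 to 79.1). The levels of Fcer1a and of Hdc overlapped between the 2 clusters. Ms4a2 was higher in cluster 18, at 113 CPM (102 to 124), than in cluster 19, at 70.7 CPM (60.3 to 82.4), while Cpa3 was at 228 CPM (212 to 244) in cluster 18 and 895 CPM (857 to 934) in cluster 19. Gata2 had 63.7% of its UMIs in cluster 11, and its levels of 52.0 CPM in cluster 11 and 52.4 CPM in cluster 14 overlapped. Erythroid markers summed to 3701 CPM in that cluster 11, with 5 of 8 enriched, and stem and progenitor markers to 560 CPM, with 3 of 5 enriched. In that cluster 14 stem and progenitor markers summed to 964 CPM, with 3 of 5 enriched. Cluster 14 also had 3 of 3 endothelial markers enriched, at a summed 61.6 CPM, and 3 of 8 B cell markers, at a summed 18138 CPM. The part of these other transcripts in the level of Gata2 was not tested in any library.

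The UMIs of Mcpt10 per UMI of Cpa3 were used to compare clusters and libraries, not to compare the 2 genes. Over all clusters the ratio was 5.79 (5.53 to 6.07) in sham, 16.5 (15.8 to 17.3) in UAC and 10.7 (10.3 to 11.1) in UAC + miR-330, with no overlap. In UAC + miR-330 it was 34.6 (32.3 to 37.2) in cluster 18 and 0.573 (0.533 to 0.615) in cluster 19. Cluster 14 of that library was higher still, at 62.2 (44.6 to 89.5), from 35 UMIs of Cpa3. In sham it was 8.70 (8.14 to 9.31) in cluster 14, 1.63 (1.47 to 1.82) in cluster 15 and 1.17 (1.04 to 1.33) in cluster 13. Cluster 10 of sham was at 41.1 (28.1 to 62.7), from 27 UMIs of Cpa3. In UAC, where 1 cluster held nearly all of both genes, it was 16.0 (15.3 to 16.8). Cluster 19 of UAC + miR-330 had the lowest ratio of all 3 libraries among clusters with at least 10 UMIs of each gene. The interval of cluster 4 of sham, at 1.1 (0.424 to 2.89) from few UMIs, overlapped it. The UMIs of Mcpt10 per UMI of Mcpt8l2 varied less, from 3.94 in cluster 5 to 8.81 in cluster 19 of UAC + miR-330, among the clusters of all 3 libraries with at least 100 UMIs of Mcpt8l2. With at least 10 UMIs of each gene, the cut used for Cpa3, the lowest was 1.67 (0.845 to 3.40), in cluster 17 of UAC + miR-330. Across the 52 clusters, which share 3 libraries, the log levels of Mcpt10 and Mcpt8l2 had a Pearson r of 0.99, and those of Mcpt10 and Cpa3 had 0.83.

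**Figure D3:**
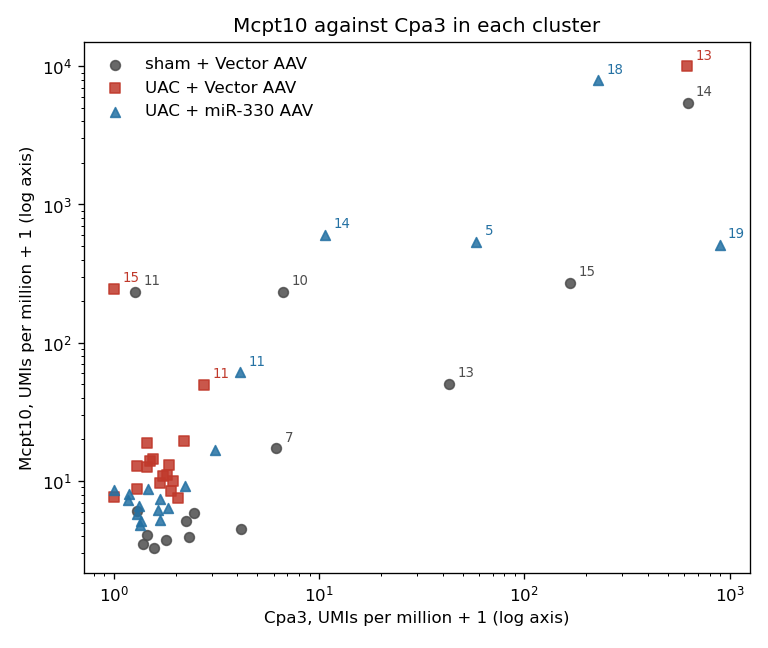
Mcpt10 against Cpa3 in each of the 52 clusters, in UMIs per 1000000 + 1 on log axes, with numbers beside clusters of higher level; circles are sham, squares UAC and triangles UAC + miR-330. Cluster 19 of UAC + miR-330 is farthest to the right for Cpa3 (895 CPM) with Mcpt10 at 512 CPM, while cluster 18 has Mcpt10 at 7895 CPM with Cpa3 at 228 CPM.

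The clusters that held these genes were not made of mast cell and basophil markers alone, so they are given by number. Cluster 13 of UAC had 11 of 11 detected mast cell markers above 0 with a summed 2512 CPM, and Mcpt2 was the most abundant at 1538 CPM. The same cluster had Ighm at 118246 CPM, Hba-a1 at 7040 CPM, the eosinophil granule gene Prg2 at 3676 CPM and Elane, a protease gene of early granulocytes, at 968 CPM. Cluster 14 of sham had mast cell markers at a summed 1701 CPM with Mcpt4 at 0, beside Ighm at 81935 CPM, Hba-a1 at 50471 CPM, Prg2 at 3101 CPM and Mpo at 955 CPM. The summed level of the 5 early granulocyte markers was 2713 CPM there and 3071 CPM in cluster 13 of UAC. The part of these other transcripts in the levels of the 7 genes was not tested.

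Cluster 18 of UAC + miR-330 shared part of this company. All 5 early granulocyte markers were enriched in it as in the 2 clusters above, and Prg2 was at 2283 CPM, most of the 2327 CPM of its eosinophil markers. It differed in the neutrophil markers, Ighm and Hba-a1. Its mast cell markers summed to 775 CPM with Tpsab1 and Mcpt4 at 0, its early granulocyte markers to 5245 CPM with Elane the most abundant at 1621 CPM, and its neutrophil markers to 203047 CPM with S100a9 at 99144 CPM. Ighm was at 229.7 CPM there and Hba-a1 at 34.4 CPM, whereas cluster 5 of that library had Ighm at 104246 CPM and Hba-a1 at 46032 CPM and held 4.51% of the UMIs of Mcpt10. Cluster 19 had mast cell markers at a summed 1535 CPM, none at 0, with Cma1 the most abundant at 479 CPM. It also had all 8 of the T and NK markers at least 2-fold above the rest of the library, at a summed 2027 CPM. Nkg7, the most abundant of them at 438 CPM, does not set it apart, being at 845 CPM in cluster 18, 412 CPM in cluster 13 of UAC and 409 CPM in cluster 14 of sham. Eosinophil markers summed to 4.74 CPM in it, with Epx, Prg3 and Il5ra at 0. The part of the T and NK and neutrophil transcripts in these placements was not tested.

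Some proteases outside the list parted along the same clusters, Prss34, Tpsb2, Ctsg and Mcpt1l4 among them, and others did not. In UAC + miR-330 cluster 18 held 82.6% of the UMIs of Ctsg and 76.4% of Mcpt1l4, and cluster 19 held 0.0767% and 0.722%. In sham cluster 14 held 73.9% and 54.7% of them, and cluster 15 held 0.0858% and 5.63%. Prss34, a tryptase-like protease of basophils, was at 1.36 CPM (1.12 to 1.65) in sham, 4.26 CPM (3.85 to 4.71) in UAC and 2.63 CPM (2.32 to 2.98) in UAC + miR-330. It had 67.9% of its UMIs in cluster 14 of sham, 94.2% in cluster 13 of UAC and 90.6% in cluster 18 of UAC + miR-330, and 0 UMIs in cluster 19. Other basophil markers did not all follow Prss34. In UAC + miR-330, Cd69, Il18rap and Csf2rb were higher in cluster 19 than in cluster 18, and Il3ra, Alox5 and Lmo4 were higher in cluster 18. The basophil list summed to 454 CPM in cluster 18 and 859 CPM in cluster 19, where Cd69 made up 528 CPM. The list as a whole thus did not single out cluster 18. Tpsb2, a mast cell tryptase, was at 3.46 CPM (3.06 to 3.90) in sham, 2.71 CPM (2.39 to 3.07) in UAC and 3.26 CPM (2.91 to 3.64) in UAC + miR-330, with 89.2% of its UMIs in cluster 15 of sham, 93.6% in cluster 13 of UAC and 75.1% in cluster 19 of UAC + miR-330. Thus Prss34 lay with Mcpt10, and Tpsb2 lay with the second cluster of Cpa3 in sham and with the first in UAC + miR-330. That cluster of sham, 15, had mast cell markers at a summed 760 CPM, of which Mitf, looked up after its value had been seen and also a gene of macrophages and osteoclasts, made up 432.5 CPM. They stood beside dendritic markers at 7510 CPM, with Cd74 at 5194 CPM, and monocyte and macrophage markers at 3083 CPM, with 10 of 10 enriched. Their part in the placement was not tested. Cma1, the alpha chymase, had 40.4% in cluster 14 of sham, 90.4% in cluster 13 of UAC, and 25.8% and 50.3% in clusters 18 and 19 of UAC + miR-330, so it lay in both. Gzmbl3 had 95.9% of its UMIs in cluster 13 of sham and 1.37% in cluster 14. In the other libraries it lay with Mcpt10, with 95.8% in cluster 13 of UAC and 84.4% in cluster 18 of UAC + miR-330. Gzmb in sham had 38.0% in cluster 10, 31.7% in cluster 13 and 14.4% in cluster 14. It had 86.0% in cluster 13 of UAC, and 63.2% and 20.3% in clusters 18 and 19 of UAC + miR-330.

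Some further genes were looked up after values had been seen. Kit, the receptor for stem cell factor, was at 78.9 CPM in cluster 19 of UAC + miR-330 and 3.16 CPM in cluster 18, but most of its UMIs in that library, 57.9%, lay in cluster 11 and 19.3% in cluster 19. In UAC, too, Kit had 59.8% of its UMIs in cluster 11, with 27.3 CPM there and 25.4 CPM in cluster 13. Hpgds, which makes prostaglandin D, was at 45.7 CPM in cluster 19 of UAC + miR-330, with 31.7% of its UMIs, and at 0.861 CPM in cluster 18. Tph1, an enzyme of serotonin synthesis, had 90.0% of its UMIs in cluster 19 of UAC + miR-330, at 65.9 CPM, but in UAC it had 45.7% in cluster 17 (16.9 CPM) and 33.3% in cluster 13 (7.89 CPM). Not all mast cell genes were higher in cluster 19 of UAC + miR-330 than in cluster 18. Mcpt2 was at 549 CPM in cluster 18, with 47.9% of its UMIs, and at 360 CPM in cluster 19, with 20.9%. It made up most of the 775 CPM of mast cell markers in cluster 18. Mcpt1l1 had 60.2% of its UMIs in cluster 18 and 16.4% in cluster 19. In UAC the T cell gene Cd3e had 91.2% of its UMIs in cluster 17, where Cpa3 had 1 UMI and Tpsb2 had 0. In UAC + miR-330 cluster 19 held 87.6% of the UMIs of Cd3e beside its 65.9% of Cpa3. Cpa3 and Cd3e thus lay in different clusters in UAC and in the same cluster in UAC + miR-330.

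The pathway was described with 8 lists of 96 genes, of which 89 had an entry. The lists include the members and were drawn up with earlier results of these data known. Their counts beside the share of all genes are therefore a description. Of the 19 granule proteases and proteoglycan genes, 13 had enough UMIs, and 7 of them were at least 2-fold higher in UAC than in sham (3.3% of all genes) with 0 lower, at a median log2 ratio of 1.10. The 7 were Mcpt10, Mcpt8l2, Mcpt1l1, Tpsab1, Prss34, Ctsg and Gzmb. Mcpt10 and Mcpt8l2 are themselves members, chosen with their values known. In UAC, cluster 13 held 96.9% of the UMIs of Mcpt1l1, 97.1% of Tpsab1, 94.2% of Prss34 and 86.0% of Gzmb. These genes thus shared a cluster with the members and are not independent of them. Mcpt1l1 was at 3.64 CPM (3.23 to 4.09) in sham, 19.6 CPM (18.7 to 20.6) in UAC and 7.84 CPM (7.29 to 8.41) in UAC + miR-330, with no overlap and UAC the highest. Its log2 ratio was 2.43 for UAC to sham and −1.32 for UAC + miR-330 to UAC. Tpsab1 was at 0.515 CPM (0.368 to 0.701) in sham, 1.49 CPM (1.25 to 1.76) in UAC and 0.165 CPM (0.0940 to 0.267) in UAC + miR-330, from 40, 138 and 16 UMIs. UAC was the highest without overlap, with log2 ratios of 1.52 and −3.14. These 2 were the list's genes at least 2-fold lower in UAC + miR-330 than in UAC (1.46% of all genes), and 0 were at least 2-fold higher. Ctsg, a protease shared with neutrophil precursors, had 1165, 2971 and 5213 UMIs in sham, UAC and UAC + miR-330, with no overlap of the levels and log2 ratios of 1.10 and 0.74. Gzmb was at 2.68, 9.75 and 6.04 CPM, and Srgn, whose proteoglycan packs the proteases, at 608, 818 and 870.4 CPM.

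The FcεRI list held 16 genes of the receptor and its proximal signalling, and 16 had enough UMIs. Lat was the 1 gene past the fold between UAC and sham, against 3.3% of all genes higher, and 1 of 16 is close to that background. It was at 2.73 CPM (2.37 to 3.12) in sham, 6.14 CPM (5.65 to 6.67) in UAC and 5.44 CPM (4.99 to 5.92) in UAC + miR-330. It had 66.3% of its UMIs in cluster 17 of UAC, the cluster of Cd3e, and 14.2% in cluster 13. The median log2 ratio of the list was 0.15 for UAC to sham and 0.39 for UAC + miR-330 to UAC, where 0 genes were past the fold. The genes with the most UMIs, Lyn, Inpp5d and Syk, had under 1% of their UMIs in the clusters of the 7 genes in all 3 libraries. Their levels over a library therefore came from other clusters.

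Of the 7 genes of histamine synthesis, storage, breakdown and receptors, 2 had enough UMIs. Hdc is given above, and Slc18a2, the transporter that loads histamine into granules, was at 1.03 CPM (0.817 to 1.28) in sham, 2.06 CPM (1.78 to 2.38) in UAC and 1.98 CPM (1.71 to 2.28) in UAC + miR-330. Sham was the lowest and the 2 UAC libraries overlapped. The log2 ratio of Slc18a2 for UAC to sham was 0.996, just under the fold as for Hdc, so 0 of the 2 genes were past it. On the deposited means both were past it, with Slc18a2 at 1.19, so the count depends on the scale. The receptor gene Hrh4 had 3, 4 and 7 UMIs.

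Of 8 eicosanoid synthesis genes, 1 was past the fold between UAC and sham and 1 between UAC + miR-330 and UAC, both higher, against 3.3% and 3.44% of all genes. A count of 1 is little to set against these shares. The first was Ptgs2, the inducible cyclooxygenase, at 14.5 CPM (13.7 to 15.4) in sham, 29.4 CPM (28.3 to 30.5) in UAC and 19.99 CPM (19.1 to 20.9) in UAC + miR-330, with no overlap. The second was Ltc4s, the leukotriene C synthase, at 1.11, 1.41 and 2.89 CPM in sham, UAC and UAC + miR-330, of which UAC + miR-330 lay apart. Alox5ap was at 148, 239 and 207 CPM and Lta4h at 97.6, 120.3 and 118 CPM, with under 15% of their UMIs in the clusters of the 7 genes.

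Of 10 receptors for growth factors and cytokines, 2 were past the fold between UAC and sham, both higher (3.3% of all genes), and 0 between UAC + miR-330 and UAC. Il1rl1, the receptor for interleukin 33, was at 4.00 CPM (3.57 to 4.48) in sham, 12.1 CPM (11.4 to 12.8) in UAC and 13.2 CPM (12.5 to 13.9) in UAC + miR-330, so sham was the lowest and the others overlapped. It had 55.6% of its UMIs in cluster 17 and 34.3% in cluster 13 of UAC, and 74.8% in cluster 19 of UAC + miR-330. Il18r1 was at 1.60, 3.57 and 5.88 CPM with no overlap. Crlf2, Il4r and Il3ra, the genes of this list with the most UMIs, were at 61.6, 42.0 and 18.4 CPM in sham, and none was past the fold.

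Of 10 cytokine genes, 5 had enough UMIs, and 1 was past the fold in each comparison, beside 3.3% of all genes higher in the first and 1.46% lower in the second. Il33 was past the fold between UAC and sham, from 19, 71 and 50 UMIs in sham, UAC and UAC + miR-330, and it had 0 UMIs in cluster 13 of UAC. Il6 was past the fold between UAC + miR-330 and UAC, from 59, 75 and 24 UMIs, at a log2 ratio of −1.69. Csf1 had 466, 769 and 933 UMIs in the same order, and its highest level was in cluster 14 of sham, cluster 13 of UAC and cluster 18 of UAC + miR-330, at 39.4, 89.8 and 69.8 CPM. Kitlg, which encodes stem cell factor, was at 1.56, 1.32 and 1.80 CPM with overlapping intervals for sham and both others.

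Of 16 transcription factors 15 had enough UMIs, and Gata2 was the 1 past the fold between UAC and sham (3.3% of all genes), with 0 past it between UAC + miR-330 and UAC. Runx1, Lmo4 and Cebpb, which had the most UMIs of this list, kept under 5% of them in the clusters of the 7 genes. Of 10 exocytosis genes 9 had enough UMIs, and 0 were past the fold in either comparison. On the deposited means the counts for UAC to sham were 2 of 16 genes of the FcεRI list, 3 of 10 receptors and 3 of 15 transcription factors, beside 5.18% of all genes higher. For UAC + miR-330 to UAC, 1 transcription factor and 1 cytokine were then higher, beside 6.73% of all genes. These counts thus depend on the scale. Cd63, a membrane protein of granules, was at 256, 234 and 195 CPM, with 3.80%, 7.53% and 17.9% of its UMIs in clusters 14, 13 and 18 of sham, UAC and UAC + miR-330. Rab27a was at 68.4, 96.8 and 113 CPM and Vamp8 at 56.3, 50.8 and 43.1 CPM, with no overlap for either.

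Marker lists differed between the libraries as well. Between UAC and sham, 2 of 11 mast cell markers and 1 of 8 basophil markers with enough UMIs were at least 2-fold higher (3.3% of all genes), 0 were lower, and the medians of the log2 ratio were 0.47 and 0.44. In the same comparison 3 of 5 early granulocyte markers (median 1.06) and 5 of 8 T and NK markers (median 1.73) were at least 2-fold higher. At least 2-fold lower were 6 of 8 chondrocyte and stromal markers (median −1.001), beside 2.47% of all genes. Also at least 2-fold higher were 3 of 8 dendritic markers, with a median of 0.60, and 2 of 3 endothelial markers were lower, with a median of −1.96. The 3 endothelial markers together had only 313 UMIs in sham, 188 in UAC and 351 in UAC + miR-330. Their summed levels were 4.03, 2.03 and 3.61 CPM. Of 8 erythroid markers 3 were at least 2-fold lower, but 5 had a log2 ratio above 0 and the median was 0.17. Of 10 neutrophil markers 10 had a log2 ratio above 0 (median 0.61), with 0 past the fold. Between UAC + miR-330 and UAC, 0 of the mast cell markers were at least 2-fold higher and 1 was lower, with a median of 0.13 as for all genes. There, 9 of 10 neutrophil markers had a log2 ratio below 0 (median −0.44), and 5 of 5 early granulocyte markers had one above 0 (median 0.58). At least 2-fold lower were 2 of 6 eosinophil markers (median −0.42), beside 1.46% of all genes. At least 2-fold higher were 3 of 8 erythroid (median 0.49) and 2 of 3 endothelial markers (median 1.17), beside 3.44% of all genes. The part of these lists in the levels of the 7 genes was not tested.

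The genes most like the 7 were found from the log levels in all 52 clusters, among 12789 genes that had 50 UMIs or more per library. The measure was Pearson's r with the mean log level of the 7 genes, given as a description because clusters of a library share its depth and its cells. Each of the 7 genes, set against the mean of the other 6 so as to leave itself out, had r from 0.83 for Gata2 to 0.97 for Hdc. Of the others, Mcpt2 had 0.97, Cma1 0.95, LOC685680 0.94, Mcpt1l1 and Mcpt1l4 0.91, Gzmb 0.86, and Prg2, Prss29, Syngr1 and AC098959.1 0.84. Mcpt2, a mucosal-type chymase, was at 50.8 CPM (49.2 to 52.4) in sham, 65.5 CPM (63.9 to 67.2) in UAC and 41.1 CPM (39.8 to 42.4) in UAC + miR-330, with UAC the highest and no overlap. Mcpt1l4 was at 19.5 CPM in sham, 63.5 CPM in UAC and 44.2 CPM in UAC + miR-330.

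In UAC, the genes outside the list with the highest ratio of the level in cluster 13 to that in the rest were AC098959.1, Mcpt1l1, Tpsab1, Gzmbl3, Dnase2b, Prss34, Igh-6, Tpsb2, Prg2 and Prss29. AC098959.1 was at 1501 CPM in the cluster and 0.617 CPM outside it. Its share in the clusters of the 7 genes was 74.6% in sham, 98.9% in UAC and 93.1% in UAC + miR-330. Igh-6, an immunoglobulin gene, was at 39712 CPM in cluster 13 of UAC and had 98.6% of its UMIs in cluster 14 of sham, but in UAC + miR-330 it had 94.7% in cluster 5 and 0.0588% in cluster 18. Prg2 was at 114, 146 and 93.7 CPM over sham, UAC and UAC + miR-330, and it had 54.1%, 93.1% and 87.2% of its UMIs in the clusters of the 7 genes. Jchain, an antibody gene chosen after its values had been seen, had 73.5% of its UMIs in cluster 13 of UAC and 76.3% in cluster 5 of UAC + miR-330, so antibody transcripts shared a cluster with Mcpt10 in UAC and mostly not in UAC + miR-330.

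The promoters of 6 of the 8 genes, the 250 bases before the start in the RefSeq promoter table, were taken from that table (GRCr8). Mcpt10 and Ms4a2 were not matched. The letters GATAA, or TTATC on the other strand, the core that GATA factors bind, stood in 2 of the 6, and in 23.5% of 33469 promoters. The letters TGACTCA, or TGAGTCA on the other strand, the site of AP-1 factors, stood in 0 of the 6, and in 4.05% of all promoters. The 2 stretches with the first motif are printed to show where the letters stand, for Cpa3 at chr2:104673254-104673487 and for Fcer1a at chr13:88224724-88224929, both on the − strand, with the motif in capitals.
Cpa3: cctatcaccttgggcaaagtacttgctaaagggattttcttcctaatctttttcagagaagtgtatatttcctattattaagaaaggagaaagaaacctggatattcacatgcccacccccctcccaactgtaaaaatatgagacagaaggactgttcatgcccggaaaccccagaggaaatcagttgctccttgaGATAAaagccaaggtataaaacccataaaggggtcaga
Fcer1a: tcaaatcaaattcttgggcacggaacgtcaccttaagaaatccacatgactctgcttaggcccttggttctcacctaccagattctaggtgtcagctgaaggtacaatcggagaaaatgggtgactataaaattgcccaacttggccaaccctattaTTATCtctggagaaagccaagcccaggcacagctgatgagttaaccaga
The prints stop at the gene record, which begins before the start in that table, so they hold 234 and 206 of the 250 bases. Counted back from the start in that table, not from the end of the prints, the motif of Cpa3 covered bases 54 to 50 and that of Fcer1a bases 93 to 89. A match of letters is a description and does not show that a factor binds there.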

How the data were processed

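The authors deposited 1 table per library with 3 columns per cluster, in the layout of Cell Ranger. The deposited mean count is a signal normalized by the authors: within a cluster, all genes' UMIs carry the same divisor. Each mean was divided by the smallest positive mean of its column, which gave UMIs. The share of values that came out whole within 0.001 was 100%, with a largest distance of 1.04e-07. The deposited log2 fold change and the authors' adjusted p-value compare a cluster with the other clusters of its library and were not used. The submitters' processing notes name Cell Ranger 7.0, STAR and Seurat 4.0.1, the genome builds they name are human and mouse, while the identifiers are of rat genes, and the rat genome build is not given in the sources used here. Doublets were left in, no correction for free RNA was made, and the number of cells per cluster is unknown. UMIs of names on several identifiers were added; none of the 7 genes was on more than 1.

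No count model was fitted to the recovered UMIs, since a condition with 1 library has no spread between replicates. The members and lists were chosen with earlier results of these data known. Named genes were the listed members, the 3 genes with the most UMIs of each pathway list and those past the fold, the most abundant marker of each list in the cluster of the members, the 10 genes most like the members and the 10 with the highest ratio of cluster 13 of UAC to the rest. Others are said to have been chosen after their values were seen. Gene synonyms, gene order and promoters came from RefSeq tables of GRCr8. The alternatives tried were other denominators, a pseudocount of 5, no filter on UMIs or at least 100 UMIs, a fold of 1.5, 1 identifier per name, the deposited means without CPM, and clusters weighed equally. Tools were Python 3.11.15, numpy 2.4.6, pandas 2.3.3, scipy 1.17.1, matplotlib 3.10.9 and biopython 1.88.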

Additional observations from a re-analysis of the deposited data

How the results depend on the processing

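On the deposited means without CPM the median log2 ratio of the members was 1.075 for UAC to sham (0.88 with CPM) and 0.29 for UAC + miR-330 to UAC (0.06 with CPM). On the same means the ratio of Cpa3 for UAC to sham was 0.0162 in place of −0.18, and that of Mcpt10 for UAC + miR-330 to UAC was 0.0599 in place of −0.18, so both signs were reversed; the ratio of Hdc for UAC + miR-330 to UAC, which was −0.01 and not apart, was 0.22. The construction shows the cause: that scale adds 0.20 and 0.24 to every gene alike, so it is no separate test. With clusters weighed equally, the median share in the cluster of the members was 74.7% in sham in place of 49.1% and 45.0% in UAC + miR-330 in place of 50.7%; the cause was not tested.

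The count of members at least 2-fold higher in UAC than in sham was 3 under most alternatives, 4 at a fold of 1.5 or on the deposited means, and 2 without the cluster highest in Col2a1, a setting chosen after seeing the data; Gata2 then fell below the fold. Over all genes, 2011 were higher and 1425 lower in UAC with no filter on UMIs, 253 and 220 with at least 100 UMIs, 1319 and 1132 at a fold of 1.5, 810 and 200 on the deposited means, and 439 and 474 without the cluster highest in Col2a1, where more were lower than higher, against 516 and 387. For UAC + miR-330 to UAC the counts were 1896 and 1409, 252 and 96, 2055 and 784, 1071 and 132, and 540 and 237, against 548 and 233. Counting error limits the genes of few UMIs, such as Fcer1a with 365 UMIs in sham.

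Each condition had 1 pooled library. Differences between libraries cannot be told apart from those between conditions. Each library was clustered by itself, and a joint clustering was not tested. Cells were not counted, and reads of the Mcpt8 family were not reassigned among its genes.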
